A study of Mus musculus with 8 samples.

Results

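Expression of 45 cell cycle genes was examined in the liver of young NZO and B6 mice, with the question whether cyclin F (Ccnf) followed the genes of proliferating cells. The genes were chosen by name for their roles and cover proliferation markers, cyclins, origin licensing and nucleotide supply, mitosis and the transcription factors of the cycle. Of the 45 genes, 36 were among the 20137 genes on the array whose signal was strong enough to be tested. Liver RNA of 4 NZO/HiBomDife mice (obese, diabetes-susceptible) and 4 C57BL/6 mice (B6, lean, diabetes-resistant) was hybridised to 1-colour Agilent arrays, 1 mouse per array. All animals were males of 6 weeks that received a high fat diet with 45% fat, so that no group on another diet served as a control. Levels are given as log2 of the processed signal minus the 75th percentile of the same array, so that 0 is the level at the 75th percentile of the spots, and differences as NZO minus B6. The strains differ across the whole genome. Each array is a separate mouse, so the p-values set the strain difference against the variation between the mice of a strain. That variation also holds differences between slides and between scan days. Alb, Ttr, Apoa1, Cps1 and Tat, which define hepatocytes, were above background on all 8 arrays.

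A cell that enters the cycle loads the MCM helicase onto its origins, copies its DNA in S phase, and separates the chromosomes in mitosis under the control of cyclins and Cdk1. Most hepatocytes of a grown liver rest, and the mRNAs of S phase and mitosis are abundant only in dividing cells. Cyclin F is an unusual cyclin: it binds no cyclin-dependent kinase and serves as the F-box subunit of an SCF ubiquitin ligase, which marks proteins such as Rrm2, Cdc6, Nusap1 and E2f1 for degradation. Its mRNA is known to rise towards mitosis together with those of cyclin A and cyclin B.

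Ccnf was set beside other cell cycle genes by the letters before the start of transcription. The promoters of 36 of the 45 genes were found in the RefSeq promoter table of build GRCm38.p6 (40 windows, as several genes have more than 1 start). In the 250 bases before each start, the CHR element (TTTGAA), the CCAAT box (CCAAT) and 4 spellings of the E2F element (TTTCCCGC, TTTGGCGC, TTTCGCGC and TTTGCCGC) were searched on both strands, where E2F matches of the opposite strands may overlap. A CHR stood in 12 of the 40 windows and in 15.99% of all 32851 windows of the table. A CCAAT box stood in 31 of the 40 windows and in 33.85% of all windows. E2F letters stood in 5 of the 40 windows and in 1.86% of all windows. Of the cell cycle windows 12 held both CHR and CCAAT box, against 5.55% of all windows. The last 160 bases before the start are given 5′ to 3′ for Ccnf, for Mki67, Prc1 and Ccnb1 as genes of mitosis, and for Mcm6 as a gene of DNA replication, with the matches in capitals:
Ccnf, chr17:24251410-24251569, minus strand: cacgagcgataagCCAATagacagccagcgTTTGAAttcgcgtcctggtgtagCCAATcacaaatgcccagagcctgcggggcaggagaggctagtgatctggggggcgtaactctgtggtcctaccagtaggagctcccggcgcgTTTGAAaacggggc
Mki67, chr7:135716380-135716539, minus strand: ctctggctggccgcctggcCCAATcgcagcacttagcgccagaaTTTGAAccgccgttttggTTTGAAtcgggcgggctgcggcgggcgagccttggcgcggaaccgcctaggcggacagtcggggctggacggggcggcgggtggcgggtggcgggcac
Prc1, chr7:80294291-80294450, plus strand: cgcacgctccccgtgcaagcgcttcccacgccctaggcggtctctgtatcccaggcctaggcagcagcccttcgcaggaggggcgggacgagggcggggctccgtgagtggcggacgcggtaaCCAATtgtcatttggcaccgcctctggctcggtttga
Ccnb1, chr13:100786487-100786646, minus strand: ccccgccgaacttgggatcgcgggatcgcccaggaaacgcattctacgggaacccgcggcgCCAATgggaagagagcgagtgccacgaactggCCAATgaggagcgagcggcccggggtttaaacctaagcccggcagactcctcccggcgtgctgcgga
Mcm6, chr1:128359706-128359865, minus strand: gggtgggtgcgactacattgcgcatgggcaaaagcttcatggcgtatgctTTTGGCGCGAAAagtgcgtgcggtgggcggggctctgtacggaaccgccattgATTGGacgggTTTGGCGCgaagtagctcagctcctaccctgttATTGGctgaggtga
Ccnf had 2 CHR and 2 CCAAT letters, with a CHR 14 bases before the start, and Mki67 likewise had 2 CHR in this window. In Prc1 the CHR letters ran across the more upstream start, so the run shown ends within them. Mcm6 held 3 E2F matches and no CHR. A match of letters is no measure of binding.

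Most of these genes could be measured in the young liver. On all 8 arrays, 34 of the 45 genes were above background, as judged by the scanner software for the probe that stood for the gene. The S phase and mitosis genes Ccne2 (a cyclin of the G1 to S transition), Cdc6 (origin licensing), Aurkb, Bub1 and Ttk (mitotic kinases) and Cenpf (a kinetochore protein) were above background on 0 of 8 arrays. The others reached it on some arrays only. Cdk1, the kinase that starts mitosis, was above background on 1 NZO and 2 B6 arrays. Another of its 3 probes passed on 0 NZO and 3 B6 arrays. Bub1b, a checkpoint kinase, passed on 0 NZO and 3 B6 arrays, and was at least 1.15-fold higher in B6 when the NZO arrays were set to the lowest level found above background. Kif11, a spindle motor, passed on 1 B6 array. Top2a, which untangles DNA, and Tpx2, a spindle assembly factor, passed on 2 NZO and 4 B6 arrays, so they were tested because of B6 alone. The 9 genes that were not above background on all 4 arrays of either strain were not tested.

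**Figure D1:**
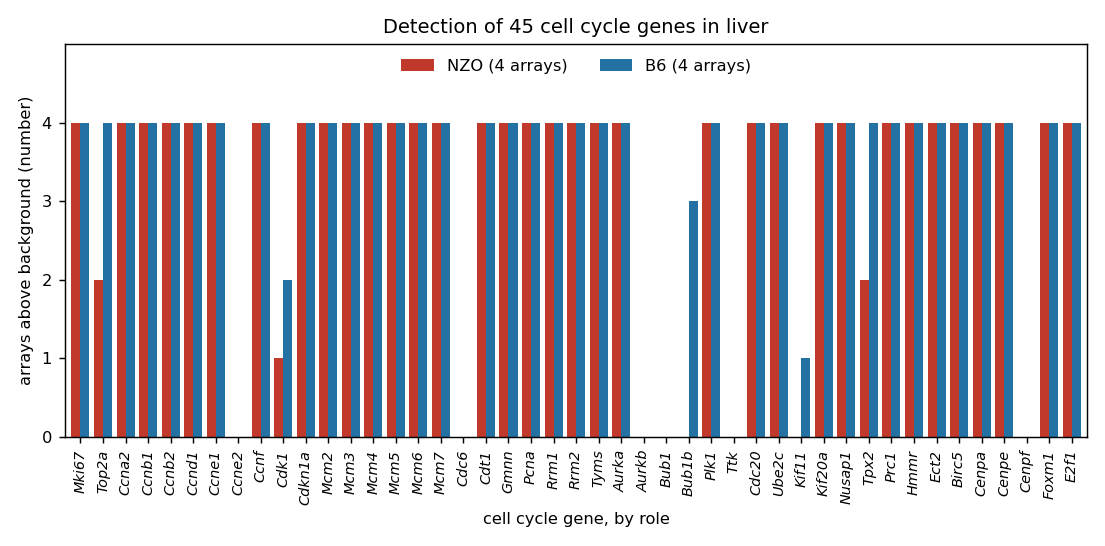
Number of arrays (of 4 in each strain) on which the probe of each of the 45 cell cycle genes was well above background, with NZO in red and B6 in blue, the genes ordered by role. Both bars reach 4 for 34 genes, and 6 genes have no bar.

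Of the 36 tested genes 4 were called lower and 2 higher in NZO with limma. A call required a p of at most 0.05 before adjustment and a change of at least 0.7 on the log2 scale, the limits used in the study. Ccnf, Ccnd1, Prc1 and Nusap1 were lower, and Cdkn1a and Mcm3 were higher. Across all 20137 genes tested 6.60% were called lower and 5.24% higher. When a Benjamini-Hochberg adjusted p of at most 0.05 was also required, Ccnf and Prc1 stayed lower and Mcm3 stayed higher, against 5.02% of all genes lower and 4.44% higher. The call of Mcm3 rests on 1 of its 2 probes, and the other was lower in NZO. With normexp background correction 2 genes were lower and 1 higher, and with the replicate block 0 genes passed after adjustment. The shares of all genes called under these settings are not given, so their counts are not set against the shares above. With the slide as a fixed block the strains meet on slide 1 alone, with 1 NZO mouse, so no count is given here. In 4 genes all NZO arrays lay below all B6 arrays and in 3 genes above them, which held for 10.5% and 11.9% of all genes. The median log2 fold change was -0.19 over the 36 cell cycle genes and 0.03 over all genes tested, with 23 of the 36 and 9396 of the 20137 below 0. Top2a and Tpx2, which were tested because of B6 alone, are among the 23. In bulk tissue, fewer cells of a type and less RNA per cell cannot be told apart.

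**Figure D2:**
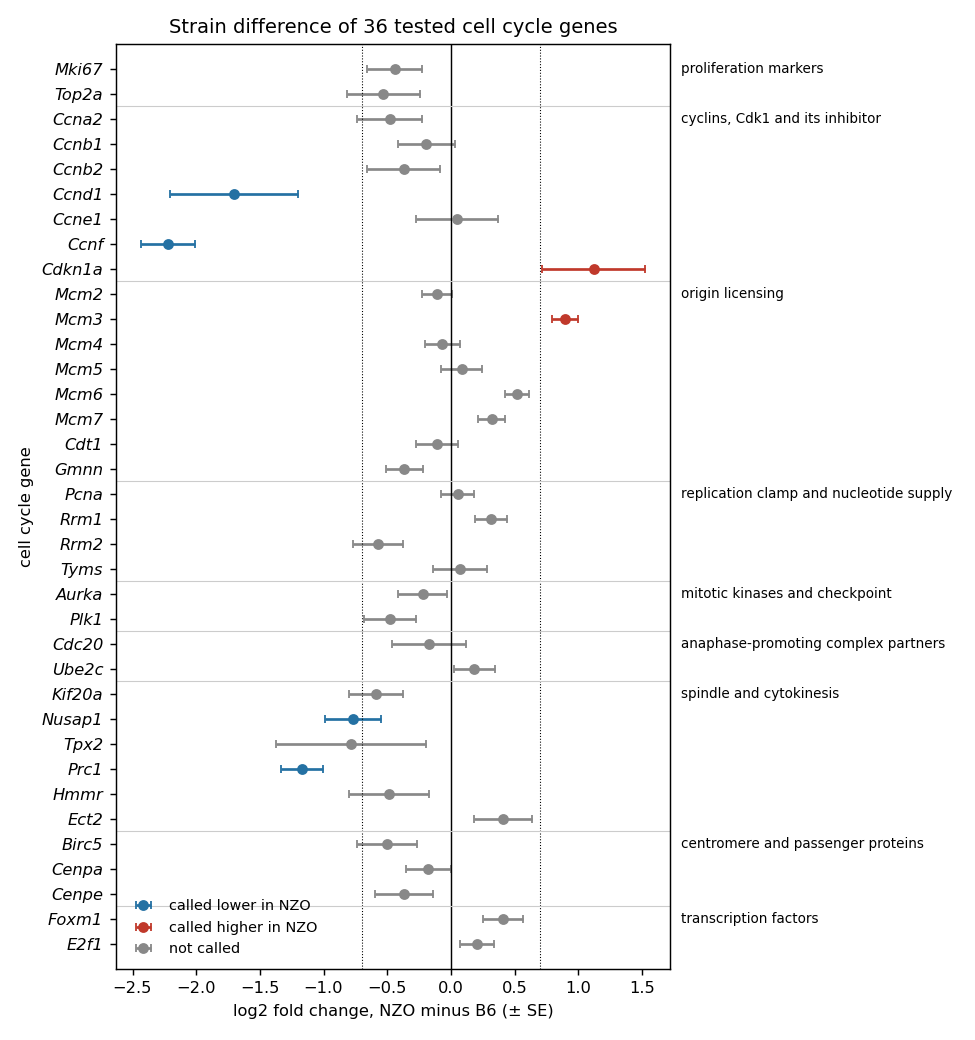
Log2 fold change (NZO minus B6, horizontal axis) with its standard error for the 36 tested cell cycle genes, grouped by role, with dotted lines at the threshold of 0.7 in either direction. Ccnf stands at -2.22, farther from 0 than the other genes shown, and the genes of DNA replication lie on both sides of 0.

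Ccnf had the lowest log2 fold change of the 36 genes. Its only probe on the array lies at chr17:24360204-24360263 of mm9 on the minus strand. Whether the strains differ in sequence under this probe was not tested. The log2 level of Ccnf was -0.56, 0.15, 0.22 and 0.18 in NZO mice 007, 003, 009 and 011, and 2.02, 2.62, 2.14 and 2.11 in B6 mice 011, 010, 015 and 009. The strains did not overlap, and NZO mouse 007 lay below the other NZO mice. Mean levels were 0.00 ± 0.37 in NZO and 2.22 ± 0.27 in B6 (SD, n = 4), a log2 fold change of -2.22 (SE 0.21) or 4.66-fold lower in NZO, with limma's adjusted p = 0.00026. Of all genes tested, 191 including Ccnf were lower in NZO by at least as much. The arrays were scanned on 2 days, both of which hold both strains, and Ccnf differed by -2.19 among the 5 arrays of day 1 and by -2.63 among the 3 arrays of day 2. With the slide as a fixed block, for which slide 1 alone carries both strains, the difference was -2.23.

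**Figure D3:**
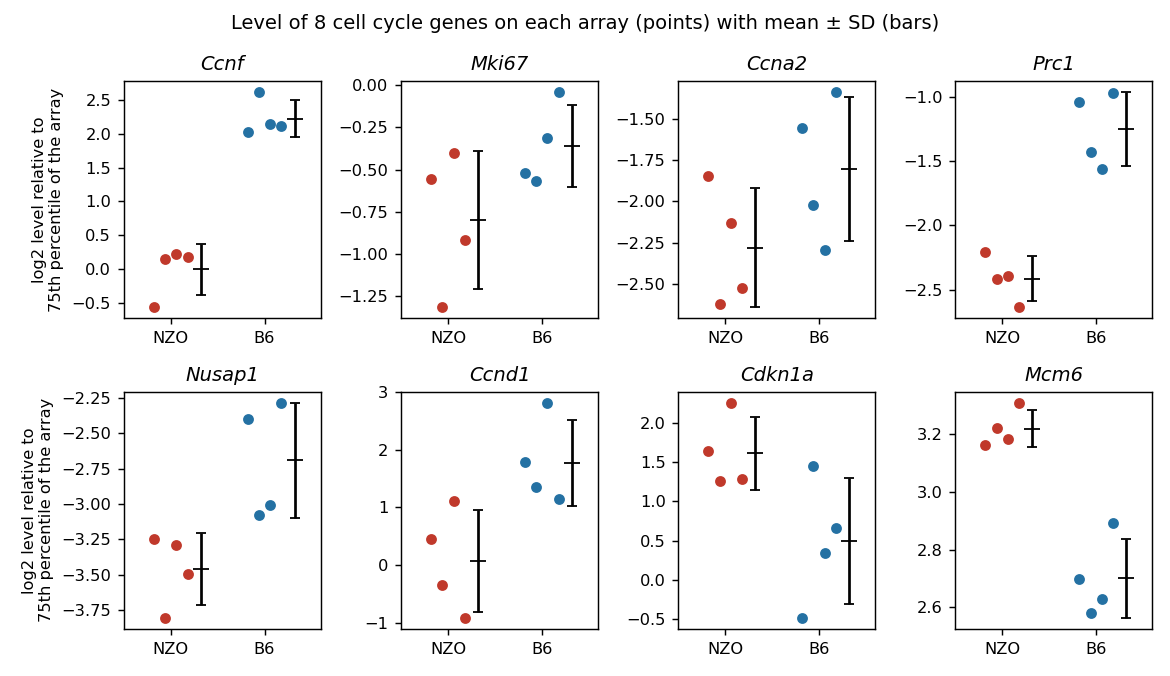
Log2 level relative to the 75th percentile of the array (vertical axis, a scale of its own for each gene) of 8 cell cycle genes, 1 point per mouse in NZO (red) and B6 (blue), with mean ± SD in black. The strains are apart in Ccnf, Prc1, Nusap1, Ccnd1 and Mcm6 and overlap in Mki67, Ccna2 and Cdkn1a.

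The proliferation markers were not called. Mki67, the antigen of cycling cells, was at -0.56, -1.32, -0.40 and -0.92 in NZO mice 007, 003, 009 and 011 and at -0.52, -0.57, -0.31 and -0.04 in B6 mice 011, 010, 015 and 009. NZO mice 003 and 011 were the low ones, while mice 007 and 009 lay among the B6 mice. The log2 fold change of Mki67 was -0.44 (SE 0.22, limma's unadjusted p = 0.075, adjusted p = 0.23), and a second probe of the gene gave -0.58 (SE 0.20). With the slide as a fixed block, Mki67 differed by -0.88, past the thresholds. That difference rests on NZO mouse 003 alone, the lowest of the NZO mice, as no other NZO mouse shared a slide with B6 mice. Top2a had a measured difference of -0.53 (SE 0.28), which is not exact, as 2 NZO arrays were at background and the gene was tested because of B6 alone.

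Cyclin A and cyclin B mRNAs also missed the thresholds. Ccna2, the cyclin of S phase and early mitosis, was at -1.84, -2.63, -2.13 and -2.53 in the NZO mice 007, 003, 009 and 011 and at -1.55, -2.02, -2.29 and -1.33 in the B6 mice 011, 010, 015 and 009, a log2 fold change of -0.48 (SE 0.25). With the replicate block it was -0.88 with an unadjusted p of 0.0077, past the thresholds, although the numbers do not pair the mice. That fit sets NZO mice 009 and 011 of scan day 1 against B6 mice 009 and 011 of scan day 2. Strain and scan day cannot be told apart in it. The B cyclins Ccnb1 and Ccnb2, which drive mitosis with Cdk1, differed by -0.19 (SE 0.22) and -0.37 (SE 0.29). The strains overlapped in all of these genes.

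Whether Ccnf differed more than single proliferation genes was tested on the level of Ccnf minus that of the other gene on the same array, for the 3 of 5 genes considered that were above background on all arrays. The large difference of Ccnf was known when these comparisons were chosen. Against Mki67 this difference was 0.80 in NZO and 2.58 in B6 on average, so Ccnf fell by 1.78 more on the log2 scale (SE 0.39). Against Ccna2 the log2 fold change of Ccnf was further from 0 by -1.74 (SE 0.46), and against Ccnb1 by -2.03 (SE 0.40). Each two-sided exact permutation test gave p = 0.029, the smallest value that 70 assignments of 8 arrays allow, and 0.029 after adjustment over the 3 comparisons. In each comparison all NZO arrays lay below all B6 arrays. The 3 tests share the Ccnf values. Cdk1 and Top2a were not compared, as they were at background on several arrays.

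Within a strain, Ccnf and the mitotic genes were compared mouse by mouse. For each array, the deviation from the strain mean was taken for Ccnf and for the 16 genes of mitosis and proliferation that were above background on all arrays. In NZO mouse 007 Ccnf was lowest (-0.56 from the strain mean), but 13 of the 16 mitotic genes were above their strain mean, with a median of 0.23. In B6 mouse 010 Ccnf was highest (0.40), and 14 of the 16 were below their strain mean, with a median of -0.20. The other mice showed both patterns: in NZO mouse 009 Ccnf (0.22) and the median of the mitotic genes (0.31) were both above, and in B6 mouse 015 both below (-0.08 and -0.13). In NZO mice 003 and 011 Ccnf was above its strain mean (0.15 and 0.18) and the mitotic median below it (-0.28 and -0.20). The 3 arrays of scan day 2 (NZO mouse 007 and B6 mice 011 and 009) all had Ccnf below the strain mean (-0.56, -0.20 and -0.11) and the mitotic median above it (0.23, 0.08 and 0.32). Mouse 007 was the only NZO mouse of that day, and the part of the scan day in this order was not tested.

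**Figure D4:**
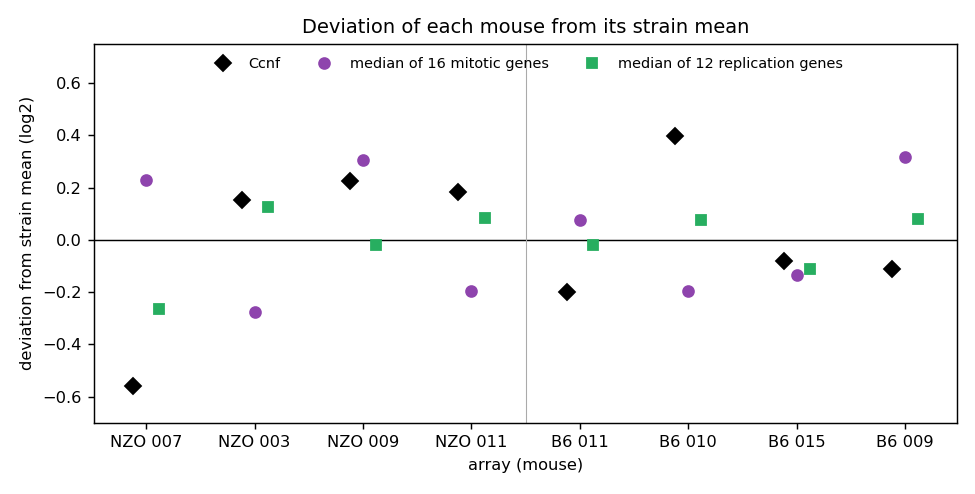
Deviation from the strain mean (log2, vertical axis) in each of the 8 mice for Ccnf (black diamonds), the median of 16 mitotic genes (purple circles) and the median of 12 genes of licensing and nucleotide supply (green squares). In NZO mouse 007 Ccnf lies at -0.56 and the mitotic median at 0.23.

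The strain-centred values of Ccnf were next compared with those of the other genes. Over 8 arrays and 33 genes compared, Pearson's r with Ccnf was 0.94 for Rrm1 (a subunit of ribonucleotide reductase), 0.81 for Cdt1 (origin licensing), 0.80 for Mcm3, 0.79 for Mcm4 and 0.72 for Mcm2 (subunits of the MCM helicase). Spearman's rho was 0.83, 0.67, 0.71, 0.52 and 0.48 for the same genes. Without NZO mouse 007 and B6 mouse 010, the arrays farthest from the median of Ccnf, r dropped to 0.78 for Rrm1 and to between 0.44 and 0.56 for the other 4. Cenpa, the histone of centromeres, came next with r = 0.70 and rho = 0.71, and r = 0.44 without the same 2 mice. Of the other genes of replication, Pcna (0.66), Gmnn (0.44) and Rrm2 (0.43) lay above 0. Mcm6 (-0.11), Mcm7 (-0.16), Mcm5 (-0.34) and Tyms (-0.66) lay below it. Mki67 had r = -0.36 and rho = -0.19 with Ccnf, and r = -0.06 without the same 2 mice. Mki67 was itself most like Birc5 (0.89), Ccnb2 (0.89) and Cenpe (0.85). The genes most unlike Ccnf were Ube2c (r = -0.89, rho = -0.88), Kif20a (r = -0.80, rho = -0.81) and Birc5 (r = -0.73, rho = -0.57), and without the same 2 mice r was -0.73, -0.54 and -0.37. These values are a description, as the arrays share their scaling and the deviations of 4 mice in a strain add up to 0. On the arrays of scan day 2 Ccnf lay below its strain mean, and Ube2c and Kif20a lay above theirs. The part of the scan day in these values was not tested.

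Among the other cyclins, Ccnd1 was called lower in NZO. Ccnd1, the D cyclin that carries growth signals into G1, was at 0.44, -0.34, 1.11 and -0.92 in NZO mice 007, 003, 009 and 011 and at 1.78, 1.36, 2.82 and 1.14 in B6 mice 011, 010, 015 and 009. The strains did not overlap, but the highest NZO mouse (009) and the lowest B6 mouse (009) were almost level, and the spread within each strain was wide. The log2 fold change was -1.70 (SE 0.50), with limma's unadjusted p = 0.0092 and adjusted p = 0.058. It was -2.14 on scan day 1 and -1.02 on scan day 2, and with the slide as a fixed block -2.43 with an unadjusted p of 0.073, which did not pass. With the replicate block it was -1.37 and did not pass either (unadjusted p = 0.17).

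Cdkn1a, the p21 inhibitor of cyclin-dependent kinases and a target of p53, was at 1.64, 1.26, 2.26 and 1.28 in NZO mice 007, 003, 009 and 011 and at -0.49, 1.46, 0.34 and 0.66 in B6 mice 011, 010, 015 and 009. B6 mouse 010 lay above 2 of the NZO mice. The log2 fold change was 1.12 (SE 0.41, limma's adjusted p = 0.11), and the call was lost without NZO mouse 009 (0.90), B6 mouse 011 (0.79) or B6 mouse 015 (1.07). It was 0.36 with the slide as a fixed block, 0.70 on scan day 1 and 1.56 on scan day 2, none of which passed, and it did not pass with the test that the methods name (unadjusted p = 0.063). Ccne1, a cyclin of the G1 to S transition, had a log2 fold change of 0.05 (SE 0.32).

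Of the MCM helicase subunits, Mcm6 and Mcm7 lay above in all NZO mice without being called, and the probes of Mcm3 disagreed. Mcm6, Pcna and Mcm7 had the brightest probes of the 45 genes. Mcm6 was at 3.16, 3.22, 3.18 and 3.31 in NZO mice 007, 003, 009 and 011 and at 2.70, 2.58, 2.63 and 2.89 in B6 mice 011, 010, 015 and 009. All NZO mice lay above all B6 mice, with a log2 fold change of 0.52 (SE 0.10, limma's adjusted p = 0.0090), below the threshold of 0.7 for a call. In the deposited table, where the median of all genes was -0.15, it was 0.28 (unadjusted p = 0.053). Mcm7 had a log2 fold change of 0.32 (SE 0.10, adjusted p = 0.081), also without overlap, but 0.11 in the deposited table (unadjusted p = 0.46) and 0.17 with the replicate block (unadjusted p = 0.33). Pcna, the sliding clamp of the replication fork, was level between strains at 0.05 (SE 0.13).

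Mcm3 gave opposite results at its 2 probes. The brighter one over all arrays, at chr1:20793119-20793178 of mm9 on the minus strand, was at 0.65, 0.83, 0.79 and 0.95 in NZO mice 007, 003, 009 and 011 and at -0.19, 0.03, -0.16 and -0.03 in B6 mice 011, 010, 015 and 009. The other, at chr1:20793136-20793195, was at -0.20, -0.04, -0.05 and 0.06 in the same NZO mice and at 0.62, 0.51, 0.47 and 0.80 in the same B6 mice. The strains did not overlap at either probe, but the order was reversed. The log2 fold changes were 0.89 (SE 0.10, limma's adjusted p = 0.00066) and -0.66 (SE 0.11, adjusted p = 0.0047 over all probes), although the probes share 43 of their 60 bases. The mean of both probes gave 0.12, so no direction can be given for Mcm3. Whether the strains differ in sequence under these probes was not tested.

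The remaining replication genes were not called. Mcm2, Mcm4 and Mcm5 had log2 fold changes between -0.11 and 0.08, and so did Tyms, which makes thymidylate (0.07, SE 0.21). Cdt1 had -0.11 (SE 0.17), and Gmnn, the geminin that inhibits Cdt1, had -0.36 (SE 0.15, adjusted p = 0.15). The subunits of ribonucleotide reductase lay on opposite sides of 0, with 0.31 for Rrm1 (SE 0.12, adjusted p = 0.14) and -0.57 for Rrm2 (SE 0.20, adjusted p = 0.097). Over the 12 genes of licensing and nucleotide supply above background on all arrays, the median log2 fold change was 0.06.

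Among the genes of spindle and cytokinesis, 2 of the 6 tested were called lower in NZO, against 6.60% of all genes. Prc1, which bundles microtubules of the central spindle, was at -2.21, -2.42, -2.40 and -2.64 in NZO mice 007, 003, 009 and 011 and at -1.04, -1.43, -1.56 and -0.97 in B6 mice 011, 010, 015 and 009. The strains did not overlap, and the lowest B6 mouse (015) was well above the highest NZO mouse (007). The log2 fold change was -1.17 (SE 0.16, limma's adjusted p = 0.0020), with -0.99 on scan day 1 and -1.21 on scan day 2. With normexp background correction, which adds a constant of 50 to every probe, it was -0.40 (unadjusted p = 0.00073), short of the threshold of 0.7.

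Nusap1, a microtubule-binding protein of the spindle, was at -3.25, -3.81, -3.29 and -3.49 in NZO mice 007, 003, 009 and 011 and at -2.40, -3.08, -3.01 and -2.28 in B6 mice 011, 010, 015 and 009. All NZO mice were below all B6 mice, and the 2 B6 mice scanned on day 2 (011 and 009) were the highest. The log2 fold change was -0.77 (SE 0.22, limma's adjusted p = 0.051). It was -0.49 on scan day 1, -0.91 on scan day 2, -0.64 with scan day as a term, -0.46 in the deposited table and -0.07 with normexp background correction, and it stayed below 0.7 in size without NZO mouse 003 (-0.65), B6 mouse 011 (-0.67) or B6 mouse 009 (-0.63). The other genes of this role were not called: Kif20a, a cytokinesis motor, at -0.59 (SE 0.21, adjusted p = 0.11), Hmmr, a spindle protein, at -0.49 (SE 0.32), Tpx2 at a measured -0.79 (SE 0.59, not exact, as 2 NZO arrays were at background) and Ect2, which starts the cleavage furrow, at 0.41 (SE 0.23).

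The other mitotic genes were not called either. Aurka and Plk1, kinases of spindle assembly, had log2 fold changes of -0.22 (SE 0.19) and -0.48 (SE 0.20, adjusted p = 0.17). Cdc20, the activator of the anaphase-promoting complex, had -0.17 (SE 0.29), and its partner Ube2c, which charges the complex with ubiquitin, 0.18 (SE 0.16). Birc5 (survivin, of the chromosomal passenger complex), Cenpa (the histone of centromeres) and Cenpe (a kinetochore motor) were at -0.50 (SE 0.24), -0.18 (SE 0.18) and -0.37 (SE 0.23). Over the 16 genes of mitosis and proliferation above background on all arrays, 14 had a log2 fold change below 0, with a median of -0.41. Of the 16, 2 (Prc1 and Nusap1) were called lower, against 6.60% of all genes. The median was -0.10 with normexp background correction and -0.38 both with quantile normalization and in the deposited table, where the median of all genes was -0.15. In each of these, 14 of the 16 lay below the median of all genes. With the slide as a fixed block, the strains meet on slide 1 alone (NZO mouse 003 and B6 mice 010 and 015). The difference then rests on 1 NZO mouse, whose mitotic median was the lowest in NZO (-0.28 from the strain mean). In this fit Mki67 (-0.88), Ccnb2 (-0.92), Hmmr (-1.48), Birc5 (-0.89) and Cenpe (-0.90) were also called lower. Foxm1, a transcription factor of the mitotic genes, and E2f1, a transcription factor of S phase, had 0.41 (SE 0.16, adjusted p = 0.13) and 0.20 (SE 0.14).

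Of 143 further genes of the same pathways, 110 were tested, with 8 called lower (7.27%) and 5 higher (4.55%) in NZO. These shares are close to those of all genes (6.60% and 5.24%), and the calls are given as values of single genes. The 8 include Fos, which was tested because of B6 alone. Pttg1 (securin), which holds back the separation of sister chromatids, was at 1.76, 1.63, 1.63 and 1.22 in NZO mice 007, 003, 009 and 011 and at 4.82, 4.47, 4.70 and 4.73 in B6 mice 011, 010, 015 and 009. The strains were far apart, with a log2 fold change of -3.12 (SE 0.14, limma's adjusted p = 4.6e-06), the only call among 23 tested genes of the list of other mitotic genes. Pkmyt1, which holds Cdk1 inactive, was the only call among 11 other cyclins, kinases and phosphatases, at -1.67 (SE 0.20, adjusted p = 0.00099).

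The CDK inhibitors Cdkn2c (p18) and Cdkn1b (p27) were called lower in NZO, as 2 of 4 tested in their list against 6.60% of all genes, whereas Cdkn1a was called higher. Cdkn2c was at -3.16, -3.51, -2.77 and -3.49 in NZO mice 007, 003, 009 and 011 and at -0.97, -0.82, -0.99 and -1.40 in B6 mice 011, 010, 015 and 009, with no overlap and a log2 fold change of -2.19 (SE 0.20, limma's adjusted p = 0.00020). Cdkn1b differed by -0.70 (SE 0.10, adjusted p = 0.0022), at the threshold. Among 12 tested genes of p53 and its targets, Btg2, an antiproliferative factor, was called at -1.18 (SE 0.20, adjusted p = 0.0056).

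Among 16 tested pocket proteins, E2F factors and MuvB subunits, 4 E2F genes were called higher and 0 genes lower with limma. Of all genes 5.24% were called higher and 6.60% lower. At limma's unadjusted p of 0.05 alone, 6 of the 16 were higher and 0 lower, against 2924 and 2765 of all 20137 genes. E2f2, an activator, differed by 1.03 (SE 0.17, limma's adjusted p = 0.0049) and E2f6, a repressor, by 0.75 (SE 0.10, adjusted p = 0.0019). The repressors E2f7 at 0.87 (SE 0.37, adjusted p = 0.17) and E2f8 at 1.31 (SE 0.50, adjusted p = 0.13) overlapped between strains and passed neither after adjustment nor with the test that the methods name (unadjusted p = 0.12 and 0.073). E2f7 was low in the 2 B6 mice scanned on day 2, and its difference was 0.30 on scan day 1.

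Further SCF ligase genes, those of other F-box proteins included, and substrates of cyclin F, beyond Rrm2, Cdc6, Nusap1 and E2f1, showed 0 calls with limma. Of this list of 11 genes 10 were tested, with log2 fold changes from -0.68 to 0.25 and a median of -0.03, and 1 of them reached an unadjusted p of 0.05 (lower in NZO). Of 25 other replication genes Uhrf1, which carries DNA methylation through S phase, was called lower at -0.97 (SE 0.18, limma's adjusted p = 0.0092). Of 9 growth factors and early genes of liver growth, Egf was higher at 0.72 (SE 0.09, adjusted p = 0.00096), and Hbegf was lower at -0.76 (SE 0.22, adjusted p = 0.053). Fos, an immediate early gene, was above background on 0 NZO and 4 B6 arrays and at least 1.84-fold higher in B6. It was tested because of B6 alone. Its call is counted among the 8 but rests on NZO values at background, so it lends no weight to that count.

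Of these 13 genes, Pttg1 and Cdkn2c were called under all 21 alternatives of processing and sample choice, and the other 11 missed the thresholds under at least 1. With normexp background correction Fos differed by -0.10, Uhrf1 by -0.20, Hbegf by -0.17, Egf by 0.29 and E2f7 by 0.40. Pkmyt1 (-0.62), Btg2 (-0.63), Cdkn1b (-0.65) and E2f6 (0.65) also fell short of 0.7 in size with it. Cdkn2c differed by -0.79 with this correction and by -1.37 in the deposited table.

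Of the 5 tested neighbours of Ccnf on chromosome 17, Tedc2 was called lower and Abca3 higher in NZO, against 6.60% and 5.24% of all genes. In the gene order of the RefSeq table (GRCm38), Tedc2 comes before Ccnf and Abca17 and Abca3 come after it. Tedc2, a tubulin-binding protein of centrioles, was at 0.98, 1.49, 1.59 and 1.79 in NZO mice 007, 003, 009 and 011 and at 2.71, 3.11, 3.28 and 2.61 in B6 mice 011, 010, 015 and 009. It was lower in NZO without overlap, with a log2 fold change of -1.46 (SE 0.21, limma's adjusted p = 0.0025). Abca3, a lipid transporter, was higher in NZO without overlap, by 2.35 (SE 0.09, adjusted p = 2.7e-06). Abca17 (0.60, SE 0.29), Ntn3 (-0.47, SE 0.19) and Rnps1 (0.03, SE 0.12) were not called.

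**Figure D5:**
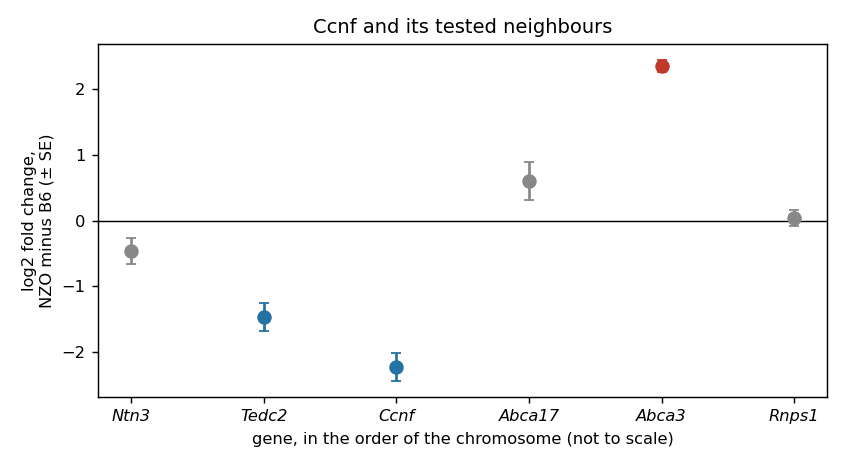
Log2 fold change (NZO minus B6) with its standard error for Ccnf and the 5 tested genes nearest to it on chromosome 17, in gene order and not to scale. Tedc2 and Ccnf lie below 0 at -1.46 and -2.22, and Abca3 above 0 at 2.35.

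Markers of other cells moved with the strains as well. Of the 5 Kupffer cell markers (resident macrophages of the liver) 3 were called lower in NZO, against 6.60% of all genes: Clec4f at -1.13 (SE 0.13), Marco at -1.83 (SE 0.36) and Cd5l at -0.71 (SE 0.11), each with limma's adjusted p of at most 0.05. Their summed level relative to the 75th percentile, with Cd5l the brightest of the list, was 95.8, 100.1, 86.4 and 87.9 in NZO mice 007, 003, 009 and 011 and 165, 146, 196 and 140 in B6 mice 011, 010, 015 and 009. The sums did not overlap between the strains. Of 5 tested erythroid markers out of 7, Hba-a1, Hbb-b1 and Alas2 were called higher in NZO (5.24% of all genes) by 1.00, 0.81 and 0.90. Hbb-b1 did not pass after adjustment (limma's adjusted p = 0.069). Slc4a1 (0.61, SE 0.37) and Klf1 (-0.36, SE 0.15, unadjusted p = 0.046) were not called. The summed level of the erythroid markers was 362 in NZO and 181 in B6 on average, with Hba-a1 the brightest of the list and Epb4.2 at background on all arrays.

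Markers of further cell types were called as follows. Of 3 tested bile duct markers out of 4, Sox9 (-1.47, SE 0.28) and Krt7 (-1.0, SE 0.34) were called lower (6.60% of all genes), the latter with 2 NZO arrays at background and an adjusted p of 0.089, and the sum was 0.631 in NZO and 1.28 in B6 on average, Krt19 the brightest of the list. Of the granulocyte precursor markers Mpo (2.17, SE 0.82) and Camp (1.85, SE 0.44) were called higher in NZO (2 of 5 tested, 5.24% of all genes), Mpo with 2 B6 arrays at background and an adjusted p of 0.13, while S100a8 (-0.03), S100a9 (-0.20) and Elane (0.16) were not called, with sums of 8.38 and 7.55, S100a9 the brightest of the list. Of 5 leukocyte markers Itgax was called lower at -2.04 (SE 0.53), with 2 NZO arrays at background, while Ptprc (-0.52, SE 0.17), Cd2 (-0.61, SE 0.17), Lyz2 (0.41, SE 0.15) and Cd3e (0.33, SE 0.34) were not called. The sums were 10.3 and 8.46, with NZO mouse 007 at 15.5 and the other NZO mice between 8.28 and 8.89, Cd3e the brightest of the list. Endothelial markers (sums 55.3 and 41.7, Stab2 the brightest of the list), stellate cell markers (46.0 and 59.3, Dcn) and hepatocyte markers (3858 and 3406, Alb) had 0 calls with limma. At limma's unadjusted p of 0.05 alone, the endothelial Stab2 was higher in NZO (0.48, SE 0.09) and Cdh5 lower (-0.27, SE 0.09). The stellate cell markers Dcn (-0.37, SE 0.10) and Reln (-0.38, SE 0.16) were lower. Of all 20137 genes, 2924 were higher and 2765 lower at that p. Differences of Krt7, Mpo and Itgax are not exact, as each was tested because of 1 strain alone. Their calls therefore lend no weight to the counts set against the shares of all genes. The part of these cells in the differences of Ccnf, Prc1, Nusap1, Ccnd1 and Cdkn1a was not tested.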

How the data were processed

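Agilent 1-colour arrays of 8 livers (4 NZO, 4 B6) were used. Scanner files and a table of the series were deposited by the authors. Their intensity values came, per the file headers, from Agilent Feature Extraction 11.0.1.1 (the submitters' processing notes name version 9.1), and the processed signal is the intensity after background subtraction, without scaling between arrays. The deposited table equalled the raw median intensities (59305 of 59305 spots per array, tolerance 0.01). The other deposited column used is the scanner software's mark for spots well above background.

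Spots that were controls or marked as outliers (96 to 137 on an array) were dropped, and log2 processed signals were scaled to the 75th percentile of their array. Depth corresponds here to signal over background: 50.4% to 55.0% of spots were above background in NZO and 53.1% to 60.1% in B6, with 0 saturated, and the number of arrays limits the precision. The probe with the highest mean among those kept stood for a gene. Of 55681 probes 27643 were kept, those with all 4 arrays of a strain well above background. Probes were named through the accession or symbol in the files, 31400 matched the RefSeq gene table, and the others kept the name in the files. limma 3.58.1 in R 4.3.3 was fitted to 20137 genes with no block, and Benjamini-Hochberg adjustment ran over all of them. The comparison was also run on simulated data, but no result given here rests on that run. Python 3.11.15 with scipy 1.17.1, pandas 2.3.3 and matplotlib 3.10.9 made the permutation tests, tables and plots.

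The genes in full were those past the thresholds, Ccnf, its comparison genes and the 3 brightest, with the genes past the thresholds of each other list. Cell cycle genes, other lists, markers and rules were chosen with earlier results of these data known. A fold against a strain at background on all arrays is a lower bound, with each dim array set no lower than the lowest level above background on it. Replicate numbers 009 and 011 occur in both strains but name different mice (correlations of deviations -0.26 and 0.01), so samples were not paired. Alternatives were normexp background correction (offset 50), quantile normalization, the deposited table, the mean over probes, no filter for dim probes, the probe of smallest p, slide, scan day or replicate number as a block, the Welch-corrected test of the methods, each mouse left out, and, chosen after seeing the data, each scan day alone. The values of 1 erythroid marker are not reported here.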

Additional observations from a re-analysis of the deposited data

Results flagged for a closer look

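In each strain the most distant mouse was compared with its neighbour in Dixon's test, over 72 groups of 4 mice (36 genes in 2 strains), which by chance marks about 1 in 20 groups. It marked 2. Ccnf in NZO mouse 007 (log2 level -0.56) lay below the other NZO mice, with a gap of 0.91 of the strain's range. Without that mouse the log2 fold change of Ccnf was -2.04. Ect2 in NZO mouse 009 (-1.58) lay above the other NZO mice, with a gap of 0.94 of the range. Ect2 was not called.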

How the results depend on the processing

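Ccnf was lower in NZO and past the thresholds under all 21 alternatives, with log2 fold changes from -2.63 (scan day 2 alone) to -1.86 (replicate block) and an unadjusted p of at most 0.00069. Scan day 2 holds 1 NZO array, which is assumed there to vary like the B6 arrays. All 21 alternatives read the same probe of Ccnf, and a sequence difference between the strains under it was not tested. Of the genes not called, Mki67, Ccnb2, Hmmr, Birc5 and Cenpe passed with the slide as a fixed block, and Ccna2 (-0.88) and Kif20a (-0.90) with the replicate block, while Ccnd1 passed with neither. With 1 mouse left out Ccnf ranged from -2.30 to -2.04, and its difference from Mki67 from -2.0 to -1.51, from Ccna2 from -1.94 to -1.41 and from Ccnb1 from -2.29 to -1.75. Of the cell cycle genes 2 were called higher and 4 lower. The number higher was 1 with normexp correction, the deposited table, the mean over probes, the slide as a fixed block, the Welch-corrected test and scan day 2 alone. The number lower was 2 with normexp correction and 8 with the slide as a fixed block. After adjustment 0 genes were higher, in place of 1, with normexp correction, the deposited table, the mean over probes, the slide as a fixed block, the replicate block and scan day 2 alone. After adjustment 0 genes were lower with the replicate block, in place of 2, and 1 on scan day 2 alone. With 1 mouse left out, 1 to 2 genes were higher and 3 to 5 lower, and after adjustment 1 to 2 higher and 2 to 3 lower. The Welch-corrected test called 4 genes lower, and after adjustment 1 higher and 2 lower. The replicate block, which leaves few degrees of freedom as only 2 numbers occur in both strains, called 2 higher and 5 lower before adjustment. For these numbers (009 and 011) the NZO mice were scanned on day 1 and the B6 mice on day 2. Strain and scan day therefore cannot be told apart under the replicate block. No called gene changed direction under these alternatives, although the dimmer probe of Mcm3 has the opposite direction. The number above background on all arrays was 34, and 30 when the raw mean had to be more than double the local background. The median of the 12 replication genes was 0.04 with normexp correction, 0.06 with quantile normalization and -0.12 in the deposited table. Mcm3 rests on the choice of probe, and dim genes such as Nusap1 and Prc1 on the background correction. Raw intensity over local background had a median of 1.73 in NZO and 1.96 in B6 spots, which limits what low levels can show. The causes of these changes were not tested.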

Other observations

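Some probes of cell cycle genes followed the day of the scan more than the strain. The probe that stood for Cdk1 was at -1.88 in NZO mouse 007, -1.86 in B6 mouse 011 and -2.34 in B6 mouse 009, the 3 arrays scanned on day 2. On the 5 arrays of day 1 it lay between -6.11 and -3.71. A probe of Tpx2 that did not stand for the gene was at -0.97, -1.35 and -1.95 on the same 3 arrays and between -4.10 and -2.92 on the others, with means of -2.82 in NZO and -2.84 in B6. The other 2 probes of Cdk1 were not highest on these 3 arrays together. Of the 36 tested genes, 28 had a strain difference of the same sign on both scan days. Day 2 held 1 NZO array. The same count over all genes is not given, so 28 cannot be called many or few.

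Where further probes passed the filter, Mcm3 and Foxm1 differed in sign between their probes, while Mki67, Birc5 and Ube2c did not. Foxm1 gave 0.41 (SE 0.16) and -0.29 (SE 0.54), the latter from a probe above background on 7 of 8 arrays. Birc5 gave -0.50 (SE 0.24) and -0.61 (SE 0.33), and Ube2c 0.18 (SE 0.16) and 0.38 (SE 0.17).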
